A study of Mus musculus with 10 samples.

Results

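The naive pluripotency factors are transcription regulators that mouse embryonic stem (ES) cells express before they are primed for differentiation. The 10 genes described here were *Nanog*, *Esrrb*, *Klf2*, *Klf4*, *Klf5*, *Tbx3*, *Tfcp2l1*, *Zfp42*, *Prdm14* and *Nr0b1*. Every array probe whose listed transcript accession belongs to one of these genes was taken, which gave 12 probes of 55681 and 10 genes of the 20972 that carry a symbol here. *Nanog* and *Tfcp2l1* had 2 probes each, and the other genes had 1.

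As background, Oct4 (*Pou5f1*), Sox2 and Nanog occupy many of the same regulatory elements in ES cells and hold the undifferentiated state. The naive factors form a network around them. Lif acts through Stat3 on *Klf4* and *Tfcp2l1* and through Akt signalling on *Tbx3*, and release of Tcf3 (*Tcf7l1*) repression acts on *Esrrb*, *Klf2* and *Nanog*. Several of the naive factors are lost early when ES cells leave this state, while *Fgf5* and *Otx2* come up.

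The cells were E14 mouse ES cells, a line of 129/Ola origin, kept on gelatin in 10% serum with 1000 U/ml of Lif. In 1 group (Hottip gRNA, 4 arrays) a pool of 5 guide plasmids against the *Hottip* promoter was introduced together with dCas9-VP160, a nuclease-dead Cas9 that carries an activation domain, and in another (labelled Hoxa13 gRNA, 3 arrays) the pool was against the *Hoxa13* promoter. Control cells (3 arrays) received non-targeting guides and dCas9 alone, so in comparisons with the control an effect of VP160 itself and an effect of its placement cannot be told apart. All cells were transiently transfected, were kept in 2 µg/ml puromycin for 24 h and were harvested 48 h after transfection, and each array is a separate biological replicate by its label. The question put to these genes was whether driving *Hottip* or *Hoxa13* disturbs the pluripotency network.

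Levels are given as log2 of the scanner's processed signal minus the 75th percentile of the same array, so that 0 is a probe as bright as that percentile. They were compared with the log2 values that the authors deposited for the same spots, whose medians were nearly the same on all arrays (7.186 to 7.196). Probes that Feature Extraction marked as well above background on 3 or more of the 10 arrays were tested, and those with an adjusted p below 0.05 were called (limma, Benjamini-Hochberg over all tested probes). For counts of genes, the brightest probe of each gene was used.

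The labels were first checked on *Hoxa13*. The brighter of its 2 probes had a mean level of 3.70 ± 0.42 (SD, n = 4) with Hottip gRNA and was not well above background on any control array, so that it was at least 144-fold higher than in the control. On the 3 arrays labelled Hoxa13 gRNA neither *Hoxa13* probe was well above background, as in the control, so no fold is given. The authors' values of the brighter probe were 1.20 higher on these arrays than in the control (adjusted p = 0.246). A clear rise of *Hoxa13* was thus not measured under that label, and each result below for these arrays is a result for the arrays so labelled.

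All 6 markers fixed for ES cells (*Pou5f1*, *Sox2*, *Sall4*, *Dppa5a*, *Fgf4* and *Fbxo15*) were well above background on all 10 arrays. Several features of the arrays touch what follows. The 75th percentile of the signal was 1096 to 2380 in the control, 948 to 2572 with Hottip gRNA and 586 to 1086 on the arrays labelled Hoxa13 gRNA. The slope of the spike-in controls was 1.16 on the array labelled Hoxa13 gRNA 1, which also had the lowest percentile, and 0.900 to 0.982 on the other 9. The scanner software corrected a spatial trend on all arrays except Hottip gRNA 3 and 4. The share of spots that Feature Extraction marked as outliers ran from 0.31% to 7.28%, and such spots were left out. The arrays labelled Hoxa13 gRNA 1 and 2 lay on a slide of their own, and the other 8 arrays shared the second slide. Fewer cells that express a gene and less RNA per cell cannot be told apart in these bulk samples.

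No member gene was called in any comparison. With Hottip gRNA 0 of 10 were called against the control, where 164 of all 22830 probes tested, or 0.718%, were called. On the arrays labelled Hoxa13 gRNA 0 of 10 were called against a background of 0.175%, and between both guide groups 0 of 10 against 0.381%. At an unadjusted p below 0.05 the counts were 0 of 10 (background 8.05%), 2 of 10 (*Nanog* and *Esrrb*, background 11%) and 1 of 10 (*Nanog*, background 11.9%). In the authors' values 0 of 10 were called in each comparison as well, beside 0.477%, 0.166% and 0.464% of all probes, and 2 (background 9.53%), 1 (8.9%) and 1 (11.7%) had an unadjusted p below 0.05. With groups this small the intervals are wide, and a missing call does not show that a level stayed the same.

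**Figure D1:**
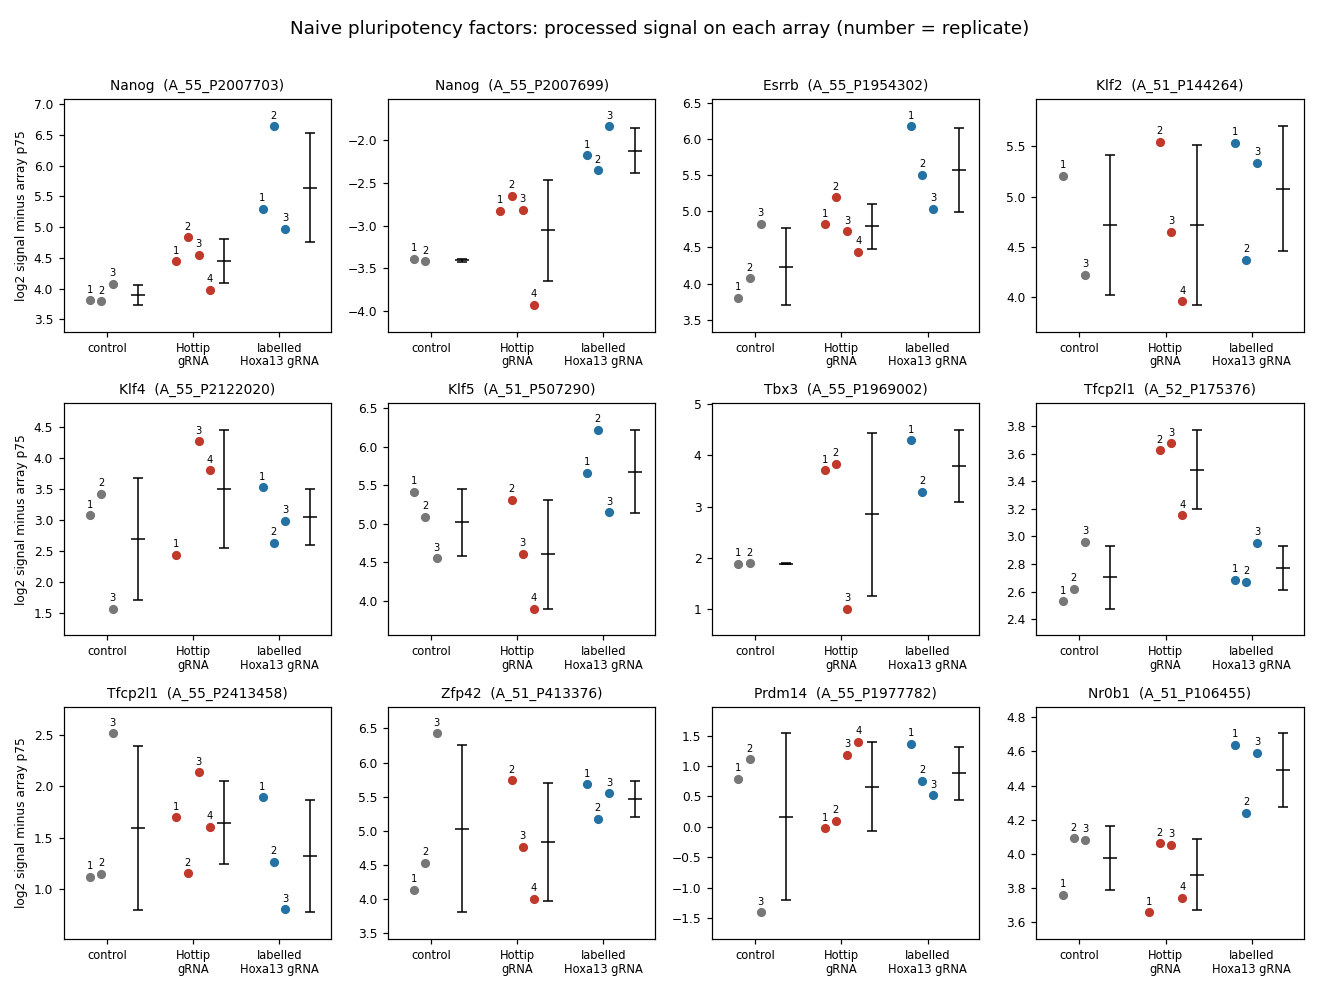
Level (log2 processed signal minus the array's 75th percentile) of each of the 12 probes on each array, with numbers giving the replicate and bars the mean ± SD of a group. Missing points are spots marked as outliers. The brighter *Nanog* probe lies between 3.79 and 4.08 in the control and between 4.97 and 6.64 on the arrays labelled Hoxa13 gRNA, whereas most other panels overlap between groups.

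*Nanog* encodes the homeodomain protein that stabilises self-renewal. Its brighter probe (A_55_P2007703) had levels of 3.81, 3.79 and 4.08 on control arrays 1 to 3, of 4.44, 4.83, 4.55 and 3.98 on Hottip gRNA arrays 1 to 4, and of 5.30, 6.64 and 4.97 on the arrays labelled Hoxa13 gRNA 1 to 3. The last group lay above both others without overlap, while the Hottip gRNA and control arrays overlapped at 1 array. The difference from the control was 0.56 with Hottip gRNA (95% interval −0.41 to 1.52, adjusted p = 0.930) and 1.74 on the arrays labelled Hoxa13 gRNA (0.72 to 2.77, adjusted p = 0.340). A two-sided exact permutation test gave p = 0.0857 for the first and p = 0.1 for the second, and a p of 0.1 is the lowest possible with groups of 3 and 3.

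The *Nanog* spot was saturated on the array labelled Hoxa13 gRNA 2, which was the highest. Without that array the difference was 1.24, and on the slide that held all 3 groups, where only array 3 of that label remains, it was 1.07. The authors' values were 14.82, 14.64 and 15.17 in the control against 14.61, 16 and 15.17 on the arrays labelled Hoxa13 gRNA. These overlap, and the difference was 0.38 (−0.41 to 1.17, adjusted p = 0.748).

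The second *Nanog* probe (A_55_P2007699) was dim. It was not well above background on any Hottip gRNA array and was above it on 2 of 3 arrays labelled Hoxa13 gRNA. Its levels were −2.18, −2.35 and −1.84 on these 3 arrays, −2.83, −2.65, −2.81 and −3.93 with Hottip gRNA and −3.39 and −3.42 on the control arrays kept. The labelled Hoxa13 gRNA arrays lay above both other groups (adjusted p = 0.447 against the control). No fold is given, because neither other group had a kept spot above background. The spot on array 3 of that label was not well above background either. The authors' values of this probe did not overlap between these arrays and the control either (adjusted p = 0.468). This probe passed the filter of 3 arrays through 2 arrays labelled Hoxa13 gRNA and the control array 3 spot that was left out. It is therefore not a second measure of the brighter probe's order, and no order of the groups is read from it.

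The promoter window of *Nanog* is printed because it holds, side by side, the letters bound by the Oct4 and Sox2 pair whose levels are given further below, and that of *Zfp42* because it is the other member with the octamer letters. Both are RefSeq promoters (build GRCm38.p6, 300 bases around the start of the gene, 5′ to 3′ on the gene's strand), *Nanog* at chr6:122707239-122707538 on the plus strand and *Zfp42* at chr8:43306960-43307259 on the minus strand. Capitals mark TTTGCAT and ACAATG.
Nanog: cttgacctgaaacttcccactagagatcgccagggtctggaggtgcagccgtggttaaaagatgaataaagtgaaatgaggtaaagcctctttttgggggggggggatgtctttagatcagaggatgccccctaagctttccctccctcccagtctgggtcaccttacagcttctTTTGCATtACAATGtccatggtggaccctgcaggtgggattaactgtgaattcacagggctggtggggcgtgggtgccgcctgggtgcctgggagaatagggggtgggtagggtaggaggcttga
Zfp42: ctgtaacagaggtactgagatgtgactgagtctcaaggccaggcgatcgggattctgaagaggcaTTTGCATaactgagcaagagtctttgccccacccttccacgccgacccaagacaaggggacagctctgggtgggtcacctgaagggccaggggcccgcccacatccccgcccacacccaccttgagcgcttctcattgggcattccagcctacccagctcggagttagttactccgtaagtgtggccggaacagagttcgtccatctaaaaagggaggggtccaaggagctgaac

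Promoter windows were at hand for 7 of the 10 members. On either strand, TTTGCAT was found for *Nanog* and *Zfp42* and in 4.63% of all 32851 windows, and ACAATG for *Nanog* and *Esrrb* and in 12.6%. In *Nanog* 1 base lies between both motifs. AAGGTCA, the half-site that Esrrb binds, was found in no member window and in 4.72% of all windows. CCNCNCCC, a Klf-type motif, was found in every member window, but also in 49.5% of all windows. These are matches of letters and not measured sites.

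*Esrrb*, an orphan nuclear receptor of the naive network, had levels of 3.81, 4.07 and 4.83 in the control, of 4.82, 5.19, 4.72 and 4.44 with Hottip gRNA and of 6.17, 5.51 and 5.03 on the arrays labelled Hoxa13 gRNA. The last group lay above the control without overlap, by 1.33 (0.38 to 2.29, adjusted p = 0.435), and the Hottip gRNA arrays by 0.56 with overlap (−0.34 to 1.45, adjusted p = 0.909). Before scaling, the intensity of the *Esrrb* spot was 31174 to 33270 in the control and 35532 to 42324 on the arrays labelled Hoxa13 gRNA, which is a smaller gap than that between the scaled levels. *Esrrb* differed in the authors' values by 0.025 on the arrays labelled Hoxa13 gRNA (adjusted p = 0.982) and by 0.37 with Hottip gRNA (adjusted p = 0.765).

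*Tfcp2l1* encodes a Lif-responsive factor that sustains self-renewal. Its brighter probe (A_52_P175376) had levels of 2.53, 2.62 and 2.96 in the control, of 3.62, 3.68 and 3.15 on Hottip gRNA arrays 2 to 4 and of 2.69, 2.67 and 2.96 on the arrays labelled Hoxa13 gRNA, with array 1 of Hottip gRNA left out as an outlier spot. All 3 Hottip gRNA arrays lay above every other array. The difference was 0.78 from the control (−0.010 to 1.57, adjusted p = 0.628) and 0.71 from the arrays labelled Hoxa13 gRNA (−0.077 to 1.5, adjusted p = 0.443), and the exact permutation test gave p = 0.1 for both, the smallest possible. The authors' values gave 0.85 (0.25 to 1.44, adjusted p = 0.309) and 0.99 (0.39 to 1.58, adjusted p = 0.203), also without overlap.

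The second *Tfcp2l1* probe (A_55_P2413458) had levels of 1.12, 1.15 and 2.51 in the control, of 1.70, 1.16, 2.14 and 1.61 with Hottip gRNA and of 1.89, 1.27 and 0.81 on the arrays labelled Hoxa13 gRNA. All groups overlapped, and the difference from the control was 0.053 with Hottip gRNA (−0.95 to 1.06, adjusted p = 0.999) and −0.27 on the arrays labelled Hoxa13 gRNA (−1.35 to 0.80, adjusted p = 0.826). In the authors' values the arrays labelled Hoxa13 gRNA lay below the control without overlap, at a difference of −0.76 (−1.34 to −0.18, adjusted p = 0.432). Between the guide groups it had the same direction as the first probe, with a difference of 0.33 in the processed signal (adjusted p = 0.754) and of 0.85 in the authors' values (0.30 to 1.39, adjusted p = 0.224). In all 26 settings run, that of the report included, both *Tfcp2l1* probes were higher with Hottip gRNA than on the arrays labelled Hoxa13 gRNA, by 0.53 to 1.61 for the brighter probe and by 0.068 to 1.11 for the other, and none of these differences was called. Some settings, such as other probe filters or leaving out a control array, cannot move this difference. The 26 are therefore not separate checks.

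**Figure D2:**
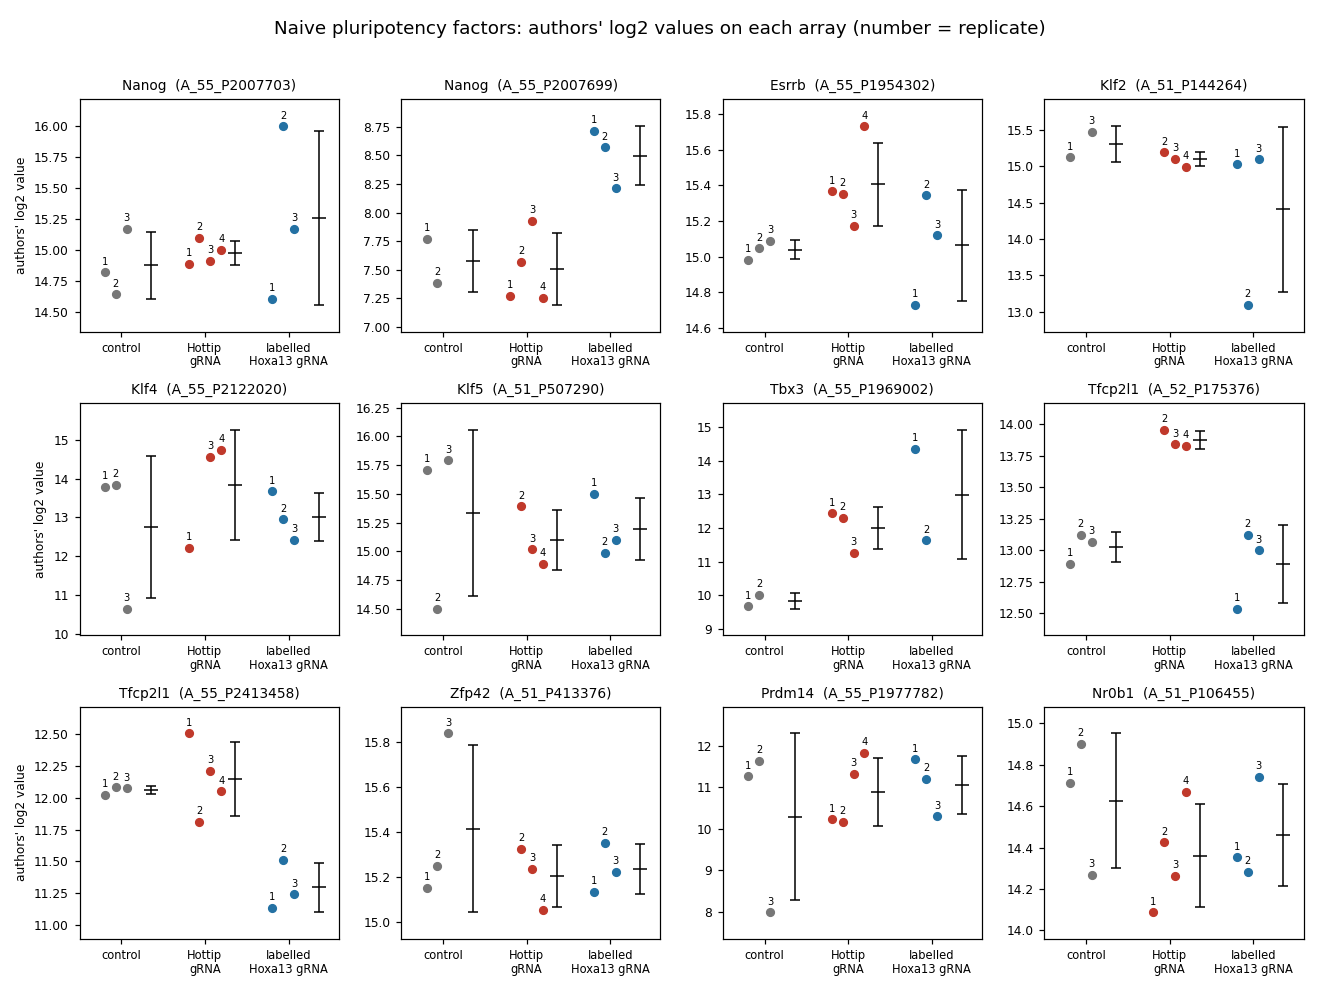
The same 12 probes in the log2 values deposited by the authors (same spots left out, number = replicate, bars = mean ± SD). The brighter *Tfcp2l1* probe stands apart with Hottip gRNA at 13.83 to 13.96, and the *Esrrb*, *Zfp42* and *Nr0b1* panels overlap between all groups except *Esrrb* with Hottip gRNA against the control.

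*Klf2*, *Klf4* and *Klf5* encode Krüppel-like factors that act in part redundantly in ES cells. *Klf4*, a direct Stat3 target, had levels of 3.08, 3.43 and 1.58 in the control, of 2.44, 4.27 and 3.81 on Hottip gRNA arrays 1, 3 and 4 and of 3.53, 2.63 and 2.99 on the arrays labelled Hoxa13 gRNA. All groups overlapped, with differences from the control of 0.81 (−0.57 to 2.20) and 0.35 (−1.03 to 1.74). Without control array 3 they were 0.25 and −0.21, and leaving out Hottip gRNA array 3 or 1 moved the first to 0.43 or 1.34.

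*Klf5*, which favours proliferation of ES cells, had levels of 5.41, 5.09 and 4.55 in the control, of 5.31, 4.61 and 3.90 on Hottip gRNA arrays 2 to 4 and of 5.66, 6.22 and 5.15 on the arrays labelled Hoxa13 gRNA. The differences from the control were −0.41 (−1.49 to 0.67) and 0.66 (−0.43 to 1.74), and the first was −0.057 without Hottip gRNA array 4 and −0.76 without array 2. *Klf2*, whose spot was left out on 1 control and 1 Hottip gRNA array, had 5.20 and 4.22 in the control, 5.54, 4.65 and 3.96 with Hottip gRNA and 5.53, 4.37 and 5.33 on the arrays labelled Hoxa13 gRNA. No pair of groups of *Klf2* or *Klf5* separated in the processed signal. The authors' values of *Klf2* were 15.03, 13.09 and 15.10 on the arrays labelled Hoxa13 gRNA and 15.13 and 15.48 in the control, a difference of −0.90 (adjusted p = 0.683) against 0.37 in the processed signal.

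*Prdm14*, a chromatin regulator that restrains Fgf signalling and DNA methylation, was the only member besides the dim *Nanog* probe below the background threshold on some array, namely control array 3. Its levels were 0.79, 1.11 and −1.40 in the control, −0.03, 0.10, 1.18 and 1.4 with Hottip gRNA and 1.37, 0.75 and 0.52 on the arrays labelled Hoxa13 gRNA. The differences of 0.50 (−0.88 to 1.87) and 0.71 (−0.76 to 2.18) were −0.29 and −0.072 without control array 3. That array and Hottip gRNA arrays 1 and 2 lay in row 1 of their slide, and the other control and Hottip gRNA arrays in row 2. Within each row, *Prdm14* was higher on every Hottip gRNA array than on every control array, and so was *Klf4* on the arrays kept. Leaving out control array 3 thus sets controls of row 2 alone against Hottip gRNA arrays of both rows. The part of the slide row was not tested.

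*Klf4* and *Prdm14* were both lowest on control array 3 and low on Hottip gRNA array 1. Their spots lie in rows 236 and 229 and in columns 71 and 102 of the array. The median level of the spots around *Prdm14* (an 11 by 11 window) was −2.20 on control array 3 and −5.26 and −4.86 on control arrays 1 and 2. It was −3.39 and −3.48 on Hottip gRNA arrays 1 and 2, against −4.54 and −5.01 on arrays 3 and 4. The part of this local signal in the levels of both genes was not tested beyond subtracting the local median. That left the *Klf4* differences at 0.89 and 0.43 and both *Prdm14* differences positive.

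*Tbx3*, a T-box factor that supports *Nanog* expression, had the largest differences from the control and the fewest values. It was measured at 1.88 and 1.89 on control arrays 1 and 2, at 3.70, 3.83 and 1.02 on Hottip gRNA arrays 1 to 3 and at 4.28 and 3.29 on the arrays labelled Hoxa13 gRNA 1 and 2, with 3 spots left out as outliers. Both arrays of the last label lay above both control arrays, by 1.90 (−0.29 to 4.09, adjusted p = 0.475), and the exact permutation test gave p = 0.333, the smallest that 2 against 2 allow. Both arrays also lay on the slide that held no control, so for *Tbx3* the slide and this group cannot be told apart. The Hottip gRNA arrays lay on both sides of the control, with a difference of 0.96 (−1.04 to 2.96) that was 0.47 without array 2 and 1.88 without array 3. No control spot of *Tbx3* was kept in slide row 1, where Hottip gRNA arrays 1 and 2 lay. For those arrays the row and the group cannot be told apart. Hottip gRNA array 3, in row 2 like the kept controls, lay below them.

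*Tbx3* was, in the authors' values, 9.66 and 10.00 in the control, 12.44, 12.30 and 11.27 with Hottip gRNA and 14.36 and 11.63 on the arrays labelled Hoxa13 gRNA, so that both guide groups lay above the control, by 2.17 (adjusted p = 0.462) and 3.16 (adjusted p = 0.398). The spots around *Tbx3* had medians of 0.72 and 1.03 on Hottip gRNA arrays 1 and 2 and of −2.31 and −1.64 on the control arrays. With the local median subtracted, the Hottip gRNA difference turned to −1.20. *Tbx3* is therefore given here without an order of the groups.

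*Zfp42* (Rex1), a widely used marker of the naive state, had levels of 4.13, 4.53 and 6.43 in the control, of 5.74, 4.76 and 4.00 on Hottip gRNA arrays 2 to 4 and of 5.68, 5.17 and 5.55 on the arrays labelled Hoxa13 gRNA. The control arrays spanned those labelled Hoxa13 gRNA and overlapped with Hottip gRNA, with differences of −0.20 (−1.64 to 1.25) and 0.44 (−1.01 to 1.88). *Zfp42* varied least of the members in the authors' values, from 15.06 to 15.84 over the arrays, and the differences were −0.21 (−0.84 to 0.42) and −0.18 (−0.81 to 0.45).

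*Nr0b1* (Dax1), an orphan receptor that binds Oct4 and tempers the network, was the member with the tightest levels. They were 3.76, 4.09 and 4.08 in the control, 3.66, 4.06, 4.05 and 3.74 with Hottip gRNA and 4.64, 4.24 and 4.59 on the arrays labelled Hoxa13 gRNA. The last group lay above both others, by 0.51 over the control (−0.23 to 1.25, adjusted p = 0.535), and the exact permutation test gave p = 0.1 there and p = 0.0286 against Hottip gRNA, the smallest values possible. The groups overlapped in the authors' values and the difference from the control was −0.17 (adjusted p = 0.861).

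*Nr0b1* was also the only member spotted 10 times, which shows how far single spots scatter within an array. The SD between its spots on the log2 scale was 0.047 on Hottip gRNA array 4 and 0.87 on control array 3, where intensities ran from 6211 to 31150.5. It was between 0.16 and 0.38 on the other 8 arrays. The other members' levels rest on 1 spot per array.

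**Figure D3:**
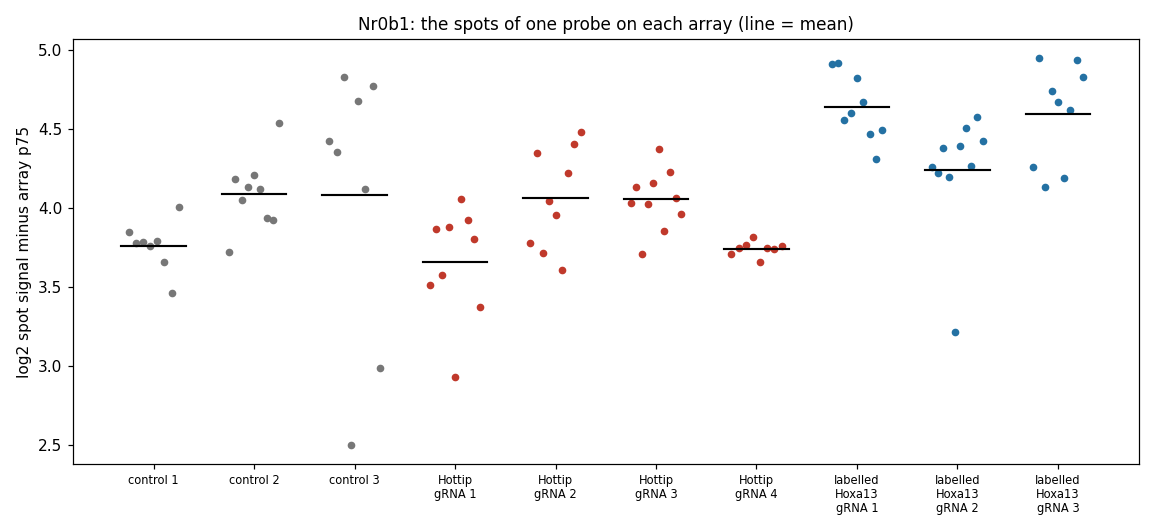
Level of each spot of the *Nr0b1* probe kept on each array (log2 signal minus the array's 75th percentile), with the line at the mean of the spots. Spots on control array 3 scatter 5.02-fold in intensity, whereas those on Hottip gRNA array 4 scatter 1.12-fold.

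Counted together, 7 of 10 members were higher than the control with Hottip gRNA, with a median difference of 0.53 beside −0.028 over all tested probes. Of the 6 members with a mean level above 4, 3 were higher (*Nanog*, *Esrrb* and, by 0.0042, *Klf2*), where 78.6% of all tested probes from 4 to 5 and 79.9% of those above 5 were higher. The 4 less bright members (*Klf4*, *Tbx3*, *Tfcp2l1* and *Prdm14*) were all higher, in classes of signal where 41.6% to 58.7% of probes were. Of these, *Prdm14* turned negative without control array 3 and *Tbx3* with local medians subtracted, and *Klf4* fell to 0.25 without control array 3. For *Klf4* as for *Prdm14*, that omission sets controls of slide row 2 alone against Hottip gRNA arrays of both rows. On the arrays labelled Hoxa13 gRNA 10 of 10 were higher, with a median of 0.59 beside 0.19. In the authors' values the counts were 6 of 10 (median 0.23) and 5 of 10 (median −0.057), so the upward shift on the arrays labelled Hoxa13 gRNA was present in the processed signal and absent in the authors' values. The groups did not overlap for 1 of 10 members with Hottip gRNA against the control (background 13.7% of all tested probes), for 4 of 10 on the arrays labelled Hoxa13 gRNA (*Nanog*, *Esrrb*, *Tbx3* and *Nr0b1*, background 23.9%) and for 3 of 10 between the guide groups (*Nanog*, *Tfcp2l1* and *Nr0b1*, background 17.7%). In the authors' values they did not overlap for 3 of 10 (19.3%), 2 of 10 (14.9%) and 1 of 10 (12.8%). Both comparisons with the control share its 3 arrays.

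The slide touches the arrays labelled Hoxa13 gRNA only, since 2 of them lay apart. With the slide as a block, which is the same as using array 3 of that label alone, the differences from the control were 0.80 for *Esrrb*, 0.13 for *Klf5*, 0.29 for *Klf4* and 0.35 for *Prdm14*, which like that of the brighter *Nanog* probe were smaller than without it. They were larger for *Nr0b1* (0.61), *Klf2* (0.62), *Zfp42* (0.52) and both *Tfcp2l1* probes (0.25 and −0.79), and the dim *Nanog* probe was not above background on the arrays left. *Tbx3* has no such value, because its kept spots of that label all lay on the other slide. The differences between the guide groups were then −0.52 for the brighter *Nanog* probe, −0.54 for *Klf5*, −0.24 for *Esrrb* and 0.53 for the brighter *Tfcp2l1* probe.

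**Figure D4:**
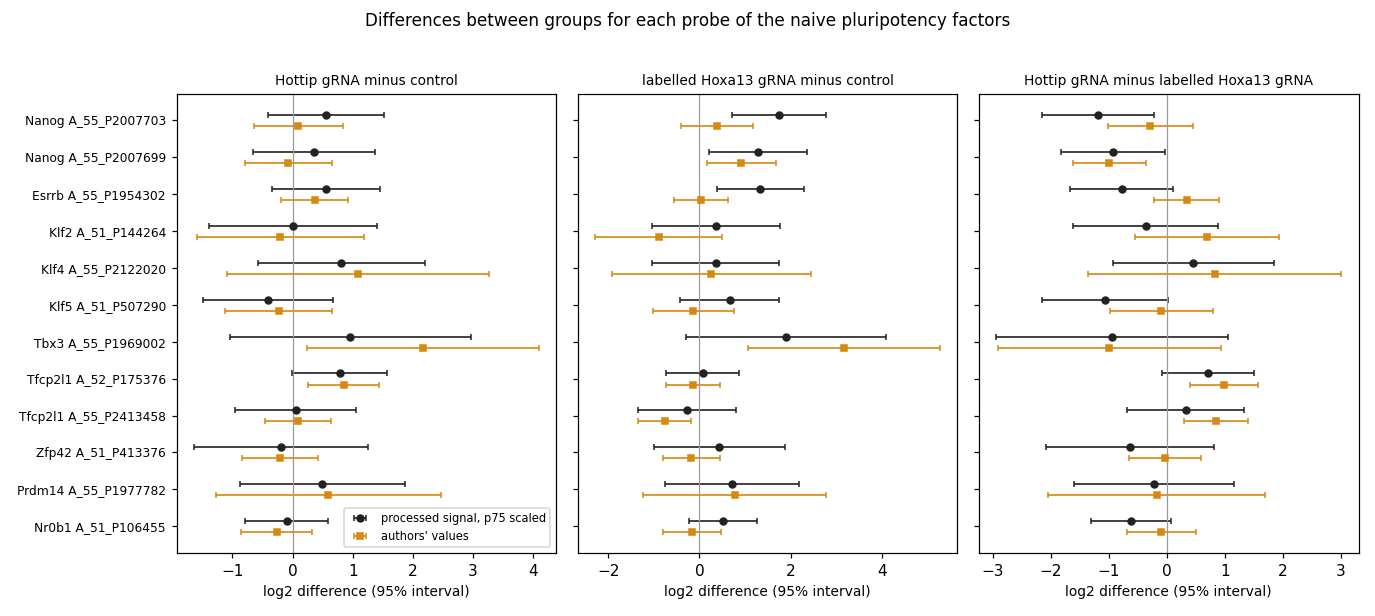
Differences between groups for each probe (points) with 95% intervals (bars), in the processed signal and in the authors' values. For *Esrrb* on the arrays labelled Hoxa13 gRNA the difference is 1.33 in the processed signal and 0.025 in the authors' values.

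Over all tested probes, the shift on the arrays labelled Hoxa13 gRNA went with how bright a probe was. *Nanog*, *Esrrb*, *Klf2*, *Klf5* and *Zfp42* lay at or above the 94.3rd percentile of signal among tested probes, which ranks spots by signal and says nothing of transcript numbers. Among all 1856 tested probes with a mean level between 4 and 5, 94.9% were higher on these arrays than in the control, with a median difference of 0.76, and among the 713 probes above 5 the median was 1.00. *Nanog* exceeded its class median by 0.99 and *Esrrb* by 0.58, whereas *Klf2*, *Nr0b1*, *Klf5* and *Zfp42* were below theirs by 0.39, 0.24, 0.34 and 0.56. The *Nanog* value includes the saturated spot, and its difference from the control was smaller without that array, as given above. Of the less bright members, *Tbx3* and *Prdm14* exceeded the medians of their classes by 1.73 and 0.64, the latter resting on control array 3, and *Klf4* and the brighter *Tfcp2l1* probe were below theirs by 0.025 and 0.10. *Gapdh*, a glycolytic enzyme used as a reference, differed by 1.45 in the same direction and *Actb* by 0.41, and the authors' values gave −0.071 and −0.085. The medians of both classes of probes were −0.036 and 0.0060 in the authors' values.

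**Figure D5:**
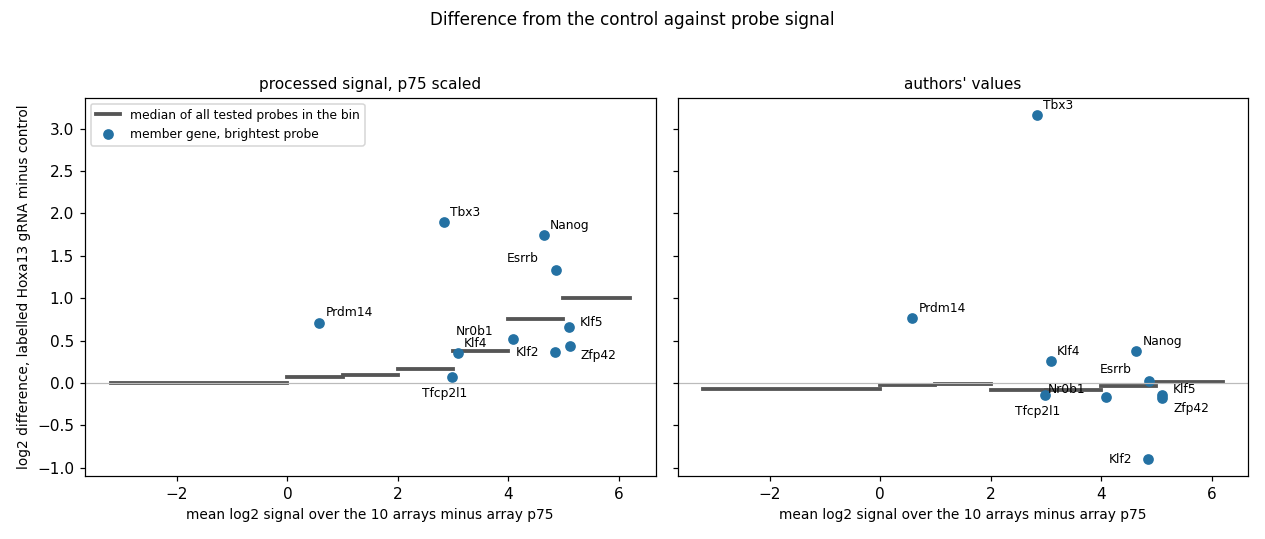
Difference between the arrays labelled Hoxa13 gRNA and the control against mean signal, for the brightest probe of each member (points) and as the median of all tested probes in classes of signal (lines, the lowest and highest classes being open-ended). In the processed signal the class medians rise from −0.0046 to 1.00 with brightness, and in the authors' values they lie between −0.081 and 0.0060.

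Between the guide groups, the members differed in both directions. The brighter *Nanog* probe was lower with Hottip gRNA than on the arrays labelled Hoxa13 gRNA, by 1.19 in size (−2.15 to −0.23 as Hottip gRNA minus labelled Hoxa13 gRNA, adjusted p = 0.336). These groups did not overlap (exact permutation p = 0.0286, the smallest possible). The same probe differed by −0.28 in the authors' values (adjusted p = 0.790), where the groups overlapped. Without the array on which the *Nanog* spot was saturated the difference was −0.69. *Klf5* differed by −1.07 (adjusted p = 0.422) and *Esrrb* by −0.78 (adjusted p = 0.450). All tested probes of like brightness had medians of −0.76 (*Klf5*) and −0.58 (*Esrrb*, *Nanog* and *Nr0b1*) in this comparison. *Klf5*, *Esrrb* and *Nanog* differed from their class by −0.31, −0.20 and −0.61. The *Nanog* value includes the saturated spot. The class median without that array was not computed, so the −0.69 is not set against it. *Nr0b1* differed by −0.61 between the guide groups and from its class by −0.030. *Tfcp2l1* went the other way. The *Esrrb* difference turned to 0.34 in the authors' values.

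The core factors were given as company for the members. *Pou5f1* (Oct4) differed from the control by 0.18 with Hottip gRNA and by 1.18 on the arrays labelled Hoxa13 gRNA (adjusted p = 0.452), and in the authors' values by 0.020 and −0.065. *Sox2* differed by −0.58 and 0.20, and *Sall4*, a zinc finger factor that binds Oct4, by −0.33 and −0.94. None of the 3 was called. Of 12 other genes of the naive state, such as *Tet2*, *Tcl1* and *Dppa3*, 0 were called in either comparison, and the median differences were 0.10 and 0.69 (−0.076 and −0.082 in the authors' values). *Tet2*, a DNA demethylase, had the highest differences of that list (1.06, and 2.07 with adjusted p = 0.447). The lowest were *Tcl1* with Hottip gRNA (−0.47) and *Dppa3* on the arrays labelled Hoxa13 gRNA, where its probe was not well above background, against 2 of 3 control arrays.

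Genes upstream of the members were not called either. Of 7 genes of the Lif input 0 were called, with medians of 0.30 and −0.11 (0.23 and −0.48 in the authors' values). *Socs3*, the feedback inhibitor that Stat3 induces, differed by 0.87 with Hottip gRNA and *Lifr*, the receptor, by −0.60, and on the arrays labelled Hoxa13 gRNA *Stat3* differed by 0.66 and the kinase *Jak1* by −0.89. Of 5 genes of the Wnt and Tcf3 input 4 were tested and 0 called, from −0.26 (*Ctnnb1*) to 0.18 (*Gsk3b*) with Hottip gRNA and from −1.17 (*Gsk3a*) to 0.34 (*Tcf7l1*) on the arrays labelled Hoxa13 gRNA.

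Genes of the later, formative or primed state were 0 of 9 called, with medians of 0.076 and −0.033. *Dnmt3a*, a DNA methyltransferase, had the largest values (2.43 with Hottip gRNA, adjusted p = 0.409, and 2.23 on the arrays labelled Hoxa13 gRNA, adjusted p = 0.447), and *Pou3f1* (−0.87) and *Wnt8a* (−0.79) the lowest.

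Among markers of other cell types, trophoblast genes moved with Hottip gRNA. *Cdx2* (adjusted p = 0.00105), *Gata3* (difference 2.72, adjusted p = 0.00649) and *Krt7* (adjusted p = 0.00684) rose. These were 3 of 7 tested of 8, where 0.718% of all tested probes were called. All 7 had positive differences, as had 47.8% of all tested probes. The authors' values also called 3 of 7, beside 0.477% of all tested probes. *Cdx2* and *Krt7* were not well above background on any control array, which makes them at least 13.3-fold and 3.74-fold higher, and *Elf5* was below it on all 10 arrays. The summed linear level of the 6 genes of the list whose spots were kept on all arrays was 4.99 to 6.56 in the control, 11.2 to 14.8 with Hottip gRNA and 6.85 to 20.7 on the arrays labelled Hoxa13 gRNA. On the arrays labelled Hoxa13 gRNA 0 of 7 trophoblast genes were called, beside 0.175% of all tested probes. There 6 of 7 had positive differences, with a median of 0.92. Over all tested probes 60.2% were higher there, with a median of 0.19. The part of such cells or genes in the members' values was not tested.

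The lists for endoderm outside the embryo (7 genes), mesoderm (4), neural cells (4) and fibroblasts (6) had 0 genes called in either comparison with the control. Of them 6, 1, 2 and 3 were tested. With Hottip gRNA the highest and lowest differences were *Gata6* at 1.66 (adjusted p = 0.0929) and *Dab2* at −3.35, *Kdr* at 0.26 as the only mesoderm gene tested, *Pax6* at −0.69 and *Sox1* at −1.76 (adjusted p = 0.121), and *Col3a1* at 1.4 and *Col1a1*, which was well above background on 1 of 3 control arrays and on none with Hottip gRNA. On the arrays labelled Hoxa13 gRNA the highest and lowest were *Sox17* at 0.069 and *Dab2* at −2.80, and *Kdr* was at 0.77. *Pax6* was at 0.55 and *Sox1* at 0.13 there, and *Col1a1* at 0.92 and *Thy1* at −0.16. The summed level of the endoderm list ran from 3.67 to 80.1 within the control and from 2.74 to 9.59 on the other arrays, with *Dab2* at 1.66 ± 4.01 (SD, n = 3) in the control.

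Among 5040 other genes well above background on all arrays, those closest to the mean profile of the members over the 10 arrays were *Apobec3*, *Rnf7*, *Trim44*, *Maip1* and *Tma7*. Their root mean square difference from it was 0.16 to 0.18 on the log2 scale, against a median of 0.51. The profile itself was lowest on control array 3 (−0.44) and highest on the array labelled Hoxa13 gRNA 1 (0.67).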

How the data were processed

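Total RNA of 10 samples was labelled with Cy3 and hybridised to one-colour Agilent mouse arrays, 1 array a sample. The deposited scanner files give the intensity of each spot. Feature Extraction (version 11.5.1.1) had subtracted the background in the processed signal and detrended it on 8 arrays. The authors also deposited log2 values with nearly the same median on every array, and their processing notes name limma. Further steps are not given in the sources used here.

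Control spots and outlier spots were left out. From log2 of the processed signal each array's 75th percentile over all non-control spots was subtracted, and the spots of a probe were averaged. Group means were fitted on all 10 arrays with limma 3.58.1 in R 4.3.3, tested on simulated data, with Benjamini-Hochberg adjustment over probes well above background on at least 3 arrays. Probes were named by RefSeq accession (GRCm38.p6 names). Probe coordinates (mm9) were not used. Permutation tests were two-sided and exact.

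Named genes were the 10 members on every probe, genes of the fixed lists that were called, the highest and lowest of each list against the control, the 5 genes of closest profile, and *Hoxa13*, *Gapdh* and *Actb*. Members and lists were chosen with earlier results of these data known. Alternatives were quantile and cyclic loess normalization, median centring, the authors' values, normexp, other filters, slide and replicate blocks, local medians and leaving out each array.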

Additional observations from a re-analysis of the deposited data

Results flagged for a closer look

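The dim *Nanog* probe (A_55_P2007699) had 1 Hottip gRNA array far from the other 3. Array 4 read −3.93 against −2.83, −2.65 and −2.81, and the gap to the nearest array was 0.860 of the range of the group, over Dixon's 95% limit for 4 values. On all 4 arrays the spot was too dim to be marked well above background. Of the 12 member probes 6 had values on all 4 Hottip gRNA arrays and were examined, and chance marks about 1 in 20 such groups. No member differed between the guide groups by an adjusted test.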

How the results depend on the processing

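No member gene was called in any of the 3 comparisons under any alternative run, nor with the probes of a gene centred and averaged, and the lowest adjusted p of a member probe over all settings was 0.152 (Hottip gRNA minus control), 0.186 (labelled Hoxa13 gRNA minus control) and 0.0768 (between both). Correlations of same-numbered arrays ran from −0.31 to 0.084. Every same-numbered control and Hottip gRNA pair lay in different rows of the slide, and the arrays labelled Hoxa13 gRNA 1 and 2 on another slide. These correlations therefore cannot decide whether the label numbers pair the arrays. The fit with the replicate block called 13, 2 and 8 probes of all tested, against 164, 40 and 87 without it. Control and Hottip gRNA arrays correlated at −0.11 to 0.42 within a row of the slide and at −0.42 to −0.071 across rows. The alternatives held no fit with the slide row. Over all probes, Hottip gRNA minus control gave 107 calls with median centring, 109 in the authors' values, 84 without scaling, 306 with cyclic loess and 5 for probes above background on all arrays (56 to 240 when 1 array was left out, the lowest without control replicate 2). Labelled Hoxa13 gRNA minus control gave 78 with median centring, 8 with the percentile taken without outlier spots, 91 without scaling, 16 without the filter, 0 for probes above background on all arrays, 68 with the slide as a block, 22 with only both groups fitted and 13 without control replicate 3 and labelled Hoxa13 gRNA replicate 1 together (3 to 130 when 1 array was left out, 3 without control replicate 2 or labelled Hoxa13 gRNA replicate 3 and 130 without control replicate 3). The comparison of both guide groups gave 33 with the percentile without outlier spots, 229 with cyclic loess, 134 with local medians subtracted, 31 without the filter, 0 for probes above background on all arrays and 48 on the slide with all groups (11 to 116 when 1 array was left out, 11 without labelled Hoxa13 gRNA replicate 2). The percentile without outlier spots, no scaling, and the joint omission were chosen after seeing the data.

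Several member differences changed sign. With Hottip gRNA against the control, *Klf2* (0.0042) turned to −0.15 (quantile), −0.21 (authors' values), −0.14 (percentile without outlier spots), −0.089 (no scaling), −0.14 (cyclic loess), −0.30 (normexp) and −0.49 (joint omission). *Klf5* turned to 0.18 with median centring, 1.45 with local medians and 0.037 with the replicate block, *Zfp42* to 0.39 with median centring, 0.049 with the replicate block and 0.50 with the joint omission, and *Nr0b1* to 0.22 with median centring. The dim *Nanog* probe turned to −0.072 in the authors' values, −0.072 with local medians, −0.27 without scaling and −0.0035 with cyclic loess, *Prdm14* to −0.29 with the joint omission, *Tbx3* to −1.20 with local medians, and the dimmer *Tfcp2l1* probe to −0.25 without scaling and −0.037 with normexp.

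On the arrays labelled Hoxa13 gRNA, values in the order quantile, authors' values, no scaling and cyclic loess were −0.42, −0.90, −0.62 and −0.19 for *Klf2*, −0.23, −0.14, −0.40 and −0.17 for *Klf5*, −0.18, −0.17, −0.55 and −0.040 for *Nr0b1*, −0.39, −0.18, −0.62 and −0.20 for *Zfp42* and −0.18, −0.14, −0.99 and −0.21 for the brighter *Tfcp2l1* probe. *Klf2* also turned to −0.41 with normexp and −0.35 with the joint omission, that *Tfcp2l1* probe to −0.078 with normexp and −0.20 with local medians, and *Klf4* to −0.11 with quantile normalization, −0.71 without scaling, −0.074 with cyclic loess and −0.45 with the joint omission. *Prdm14* turned to −0.35 without scaling and −0.31 with the joint omission, and the dim *Nanog* probe to −0.096 without scaling. Between the guide groups *Esrrb* turned to 0.017 with quantile normalization, 0.34 in the authors' values and 0.26 with local medians. In the same comparison *Klf2* was positive in 9, *Prdm14* in 8, *Zfp42* in 2 and *Nr0b1* in 1 of 26 settings, with negative values in the rest, up to 0.69, 0.54, 0.26 and 0.15. The dim *Nanog* probe was not well above background on the Hottip gRNA arrays or the control arrays kept, so its turns order background values. The cause of these turns was not tested.

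Leaving out 1 array moved *Klf2* from −0.49 to 0.50 and from −0.13 to 0.86 against the control (Hottip gRNA, then labelled Hoxa13 gRNA), *Zfp42* from −0.65 to 0.50 and from −0.011 to 1.14, *Prdm14* from −0.29 to 0.97 and from −0.072 to 1.18, the dimmer *Tfcp2l1* probe from −0.18 to 0.51 and from −0.56 to 0.19, *Klf4* on the arrays labelled Hoxa13 gRNA from −0.21 to 0.72 and the brighter *Tfcp2l1* probe there from −0.026 to 0.19. It also moved, with no change of sign, the Hottip gRNA differences of *Klf4* (0.25 to 1.34), *Klf5* (−0.76 to −0.057), *Tbx3* (0.47 to 1.88), *Esrrb* (0.34 to 0.85), *Nr0b1* (−0.21 to −0.025) and the dim *Nanog* probe (0.21 to 0.64), that of *Klf5* on the arrays labelled Hoxa13 gRNA (0.39 to 0.92) and those between the guide groups of *Nanog* (−1.52 to −0.69), *Esrrb* (−1.05 to −0.48) and *Klf5* (−1.42 to −0.71). *Nanog* (brighter probe) and *Esrrb* kept a positive difference on the arrays labelled Hoxa13 gRNA in all 26 settings, from 0.38 to 2.08 and from 0.025 to 1.63. In each comparison, other probe filters and leaving out an array of the group not compared return the same difference. Counts out of 26 settings are therefore not counts of separate checks.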
